A study of Mus musculus with 47 samples.

Results

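The loss of metabolically labeled mRNA was followed in undifferentiated P19 cells (D0), a mouse embryonal carcinoma line that grows as pluripotent-like cells. The course consisted of every library labeled as undifferentiated and as catabolic, 12 of the 47 libraries of the study, with 3 libraries at each of 4 time points. All 12 came from wild-type P19 cells kept in serum, with no retinoic acid. Cells were given 20 µM 4-thiouridine (4sU), a uridine analog that new RNA takes up, for 15 h, and the analog was then replaced by an excess of unlabeled nucleotide (10 mM). For the same labeling the methods name 13 h in another place. RNA was collected at the end of labeling (0 h), and at 3 later points, named the second time point, the third time point and 9 h. The sample labels put the second and the third time point at 1 and 3 h of the chase and the methods put them at 3 and 6 h, so both are named here by their order. The study describes the replicates of its SLAM-seq data as biological, whereas the labels do not name the cultures, and p-values measure the spread between these libraries.

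In SLAM-seq, alkylation makes each 4sU residue appear as C where T is encoded. The share of T positions read as C (the conversion rate) therefore follows the labeled fraction of a transcript. During the chase this share falls as labeled molecules are degraded and as new, unlabeled molecules are added, and the rate alone does not separate these 2 processes at a changing transcript level. Transcripts of housekeeping machinery such as ribosomes are generally known as long-lived, whereas those of immediate early genes and many regulators are known as short-lived. AU-rich elements, Pumilio elements and microRNA sites in the 3′ UTR are known to recruit proteins that deadenylate and degrade an mRNA. Ribosomal protein mRNAs and some others start with a 5′ terminal oligopyrimidine tract (TOP), which is bound by LARP1.

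Conversions were counted in 3′ UTR intervals read by 3′ end sequencing, and 14090 RefSeq mRNA transcripts of 8976 genes reached the coverage minimum, an average over the libraries of 1000 T positions covered by reads. The libraries held 3447888 to 4783742 counted reads at 0 h, 7127735 to 8258302 at the second, 5088703 to 8941051 at the third time point and 6360223 to 10151359 at 9 h. Of the tested transcripts, 323 to 602 had no reads in a 0 h library, against 0 to 65 at the second and 8 to 68 at the third time point. At 9 h the corresponding numbers were 3, 319 and 3, the 319 being in library 35. Of the embryonal carcinoma markers listed, 10 of 10 were detected and 8 were present in every library, the exceptions being Fgf4 and Dppa4. The neuronal markers listed were also all detected (12 of 12, 11 in every library), with a summed level of 757 to 948 CPM (reads scaled to the mapped reads of the library) at 0 h and 750 to 784 at 9 h, against 1745 to 2485 and 1662 to 1840 for the carcinoma markers. Markers of mesoderm and endoderm summed to 48.1 to 77.6 CPM at 0 h and 74.3 to 98.9 at 9 h, with Sox17 at 0 in all libraries. In bulk RNA, a few cells of another type and a low level in every cell cannot be told apart.

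The label was kept between 0 h and the second time point and was largely lost by 9 h. Pooled over all intervals, the conversion rate was 1.42% ± 0.0635 at 0 h, 1.41% ± 0.0292 at the second time point, 1.04% ± 0.0196 at the third and 0.415% ± 0.0165 at 9 h (SD, n = 3 libraries each). The third time point therefore held 73.1% and 9 h held 29.2% of the 0 h rate, and the libraries of 9 h lay below those of every earlier point. Unlabeled D0 cells, measured in 3 libraries of the uptake course, had a pooled rate of 0.171% ± 0.0329, which is 12% of the 0 h rate. This background was uneven, since the median gene had an unlabeled rate of only 2.11% of its own 0 h rate. For transcripts whose average coverage was 10000 or more T positions, the median rate was 1.39% at 0 h and 0.241% at 9 h. This was 17.3% of 0 h, a lower share than that of the pool.

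**Figure D1:**
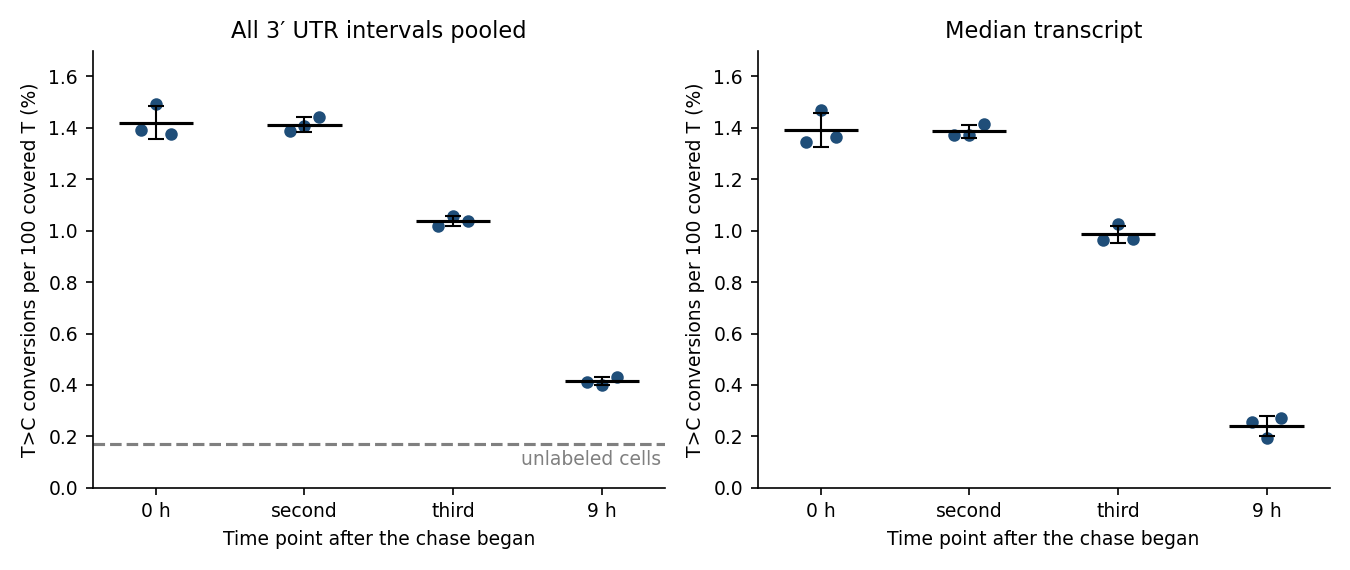
Conversion rate (percent of covered T positions read as C) in each of the 12 libraries at 4 time points. The left panel pools all intervals. The right panel is the median of transcripts whose average coverage was 10000 or more T positions. Points are libraries, lines and bars are mean ± SD of 3, and the dashed line is the mean of the unlabeled cells. The rate stayed near 1.4% at the second time point and reached 0.415% (pooled) or 0.241% (median) at 9 h.

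Between 0 h and 9 h the conversion rate fell in 6532 of 14090 transcripts (46.4%) and in 4113 of 8976 genes (45.8%), each gene represented by its best covered transcript (edgeR quasi-likelihood test, adjusted p under 0.05). It rose in 22 genes (0.245%), none with more than 6472 covered T positions and 14 of them with no conversion at 0 h. Among the 3336 genes with at least 10000 covered T positions, the median gene kept 19.1% of its 0 h rate at 9 h. Over the 5241 transcripts with that coverage the median was 18.03%, or 11.5% with the rate of unlabeled cells subtracted. The spread between genes was wide, with 9.45% at the lower quartile, 36.8% at the upper, 3.1% at the 5th percentile and 72.6% at the 95th. Less than 5% was left in 346 genes (10.4%) and more than 50% in 496 genes (14.9%).

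To compare transcripts within this state, each change was set against the median transcript, which fell by 2.46 on the log2 scale between 0 h and 9 h. Relative to it, 367 genes (4.09%) lost label faster, 707 (7.88%) lost it slower, and the remaining 7902 did not pass the test. Calls depend on coverage, and among genes with at least 10000 covered T positions 8.45% were faster and 18.1% slower. Over transcripts the split was 594 faster (4.22%) and 1038 slower (7.37%), and it turned to 1322 faster and 565 slower when changes were set against the pooled rate in place of the median transcript, since the pool fell by 1.84 on the log2 scale. DESeq2 called 1304 faster and 1529 slower, and limma with the background subtracted 529 and 1562. The slower genes include 254 (35.9%) whose rate in unlabeled cells was over 25% of their 0 h rate (0 of the faster genes). The same test at the third time point called a fall in 69 transcripts (0.49%) of 42 genes (0.468%), whereas DESeq2 called 472 transcripts and leaving out single libraries gave 19 to 366 (366 without library 35). At the second time point the test called none, with 547 transcripts at an unadjusted p under 0.05 and 1 called by DESeq2.

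The loss between the second and the third time point, which uses none of the libraries of the 9 h comparison, ran in the same order. Relative to the median transcript, the faster genes with at least 10000 covered T positions had a median log2 change of -0.44 between these points, and 246 of 282 were below 0. The slower genes had a median of +0.27, and 85 of 604 were below 0. Of all 3336 such genes 49.7% were below 0 on this change, and of all tested genes 57.9%. Over all 3336 such genes the 2 changes had a Pearson r of 0.47 and a Spearman rho of 0.51. These are correlations across genes, which share libraries and are not independent replicates. The slower genes include 254 of 707 with an unlabeled rate over 25% of their 0 h rate, against 0 of the faster genes. Conversions already present in unlabeled cells are not lost in a chase, so they raise such genes relative to the median transcript in both comparisons. Whether slower genes with a low unlabeled rate keep this order between the second and the third time point was not tested. Single genes did not pass the test on this shorter interval, apart from Rpl8, a large-subunit protein gene whose unlabeled rate was 80.9% of its 0 h rate (1 transcript slower, 0.0071% of transcripts and 0.0111% of genes, and 0 faster by edgeR, with 496 at an unadjusted p under 0.05 and 29 by DESeq2).

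**Figure D2:**
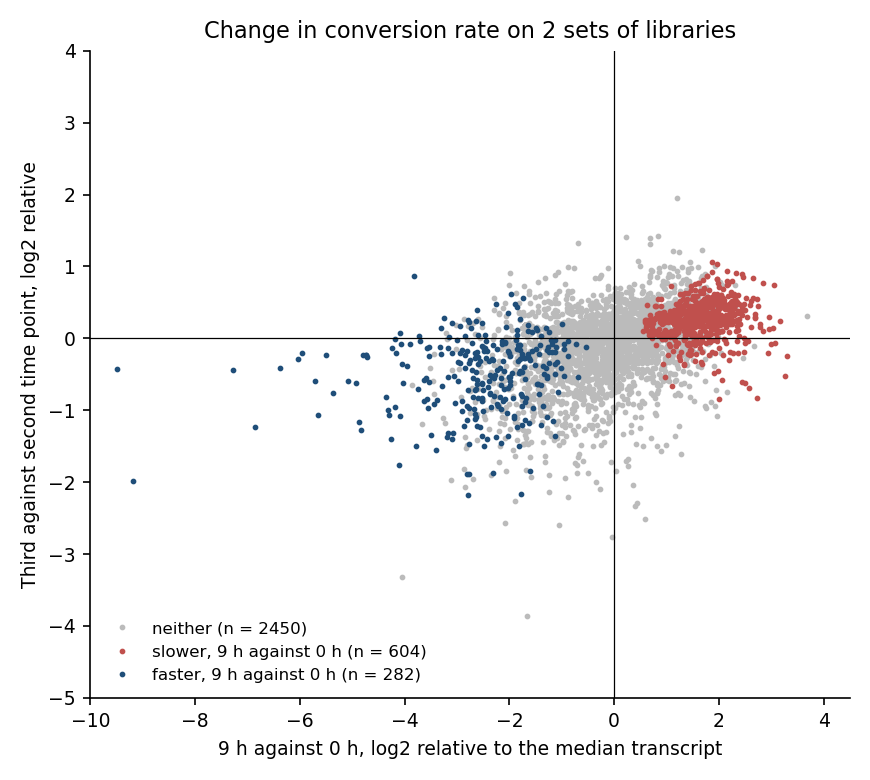
Each point is one of 3336 genes with at least 10000 covered T positions, placed by its log2 change in conversion rate relative to the median transcript at 9 h against 0 h (horizontal) and at the third against the second time point (vertical). Colors mark genes that lost label faster (282) or slower (604) at 9 h. Most faster genes (246) lie below 0 and most slower genes above 0 on the vertical axis, which rests on other libraries. Slower genes with a high unlabeled rate are not left out.

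Ribosomal protein transcripts had the highest median share of label left of the 29 lists. Of 55 ribosomal protein genes tested, 32 lost label slower than the median transcript (58.2%), 0 lost it faster and 23 did not pass. Slower genes were 7.88% of all tested genes and 18.1% of those with at least 10000 covered T positions. The list kept a median of 69.2% of the 0 h rate at 9 h, against 16.9% for all tested genes. The list's median was 68.9%, 69.7% and 72.4% in the 3 libraries of 9 h, so these libraries differed little. At the third time point it was still at 98.3%. Leaving out genes with an unlabeled rate over 25% of the 0 h rate, 26 of 46 remained slower and the median was 68.4%. The same limit left 429 of 7357 tested genes slower. Of the 89 listed genes in the files, 34 did not reach the coverage minimum, and ribosomal protein genes have many processed pseudogenes that can take or lose reads, so single members are uncertain.

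Rpl4, a large-subunit protein, had a conversion rate of 1.21%, 1.29% and 1.36% in the 0 h libraries, 1.37%, 1.30% and 1.44% at the second time point, 1.21%, 1.15% and 1.33% at the third and 0.828%, 0.924% and 0.879% at 9 h. Its rate at 9 h was below that of every earlier library, but it kept 68.2% ± 3.77 (SD, n = 3) of the 0 h rate, a log2 change of 1.91 ± 0.12 (SE) above the median transcript (edgeR adjusted p = 2.74e-12). Rack1, the scaffold protein of the small subunit, had rates of 1.30%, 1.23% and 1.08% at 0 h and 1.11%, 0.953% and 1.04% at 9 h. These groups overlapped, 86.0% ± 6.42 was left, and the log2 change was 2.24 ± 0.15 above the median (edgeR adjusted p = 1.15e-11). Its unlabeled rate was 15.8% of the 0 h rate. Rpl7l1, a paralog of Rpl7, had one of the lowest shares of the list at 9.90% ± 3.37 and was not called (edgeR adjusted p = 0.109).

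The other 15 TOP genes tested, among them elongation and initiation factors, gave 9 slower (60%, against 18.1% of genes with at least 10000 covered T positions), 1 faster and 5 not passing, with a median of 50.6% left. At the slow end Eef1d, a subunit of the elongation factor exchange complex, kept 77.2% ± 20.9, and Tpt1, the translationally controlled tumor protein, kept 89.9% ± 37.5 without passing. The faster member was Eif3a, the largest eIF3 subunit, with rates of 1.40%, 2.19% and 1.06% at 0 h and 0.0343%, 0.0767% and 0.0341% at 9 h. All 9 h values of Eif3a were far below all 0 h values, and 3.12% ± 1.58 was left (log2 change -2.59 ± 0.45, edgeR adjusted p = 0.000115).

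The sequences around the annotated transcription start are shown for members with and without a pyrimidine run, and the 30 bases printed run from 15 before to 15 after the RefSeq start (GRCm38, the same assembly as mm10) with the longest run of C and T on the transcript's strand in capitals. They were chosen as examples after their values were seen. The first 4 were called slower and hold a run, Eef2, an elongation factor with 50.6% left, was called slower and holds none of that length, and Eif3a and Larp1 were called faster.
Rack1 (chr11:48800345-48800374, plus strand): cggaggccgCTCTTTCTTTTTCTCCacagg
Rpl4 (chr9:64173372-64173401, plus strand): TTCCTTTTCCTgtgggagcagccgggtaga
Eef1a1 (chr9:78481710-78481739, minus strand): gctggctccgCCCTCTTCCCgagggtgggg
Eif3f (chr7:108934400-108934429, plus strand): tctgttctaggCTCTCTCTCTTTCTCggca
Eef2 (chr10:81176616-81176645, plus strand): tataaaaggCCgggcgttgacgtcagcggt
Eif3a (chr19:60790679-60790708, minus strand): cggggCTCgggcggcggcgctgccgccgcg
Larp1 (chr11:58009049-58009078, plus strand): cggctaggcgcgccggagCCTTCTgcccgg

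A run of at least 8 C or T stood in this window in 21 of 43 ribosomal protein genes with a matched start (48.8%) and in 3 of 10 other TOP genes (30%), against 11.9% of all 27025 starts in the table. The other 22 ribosomal protein and 7 TOP genes lacked it. Over all genes it stood at 11.7% of the slower genes, 11.6% of the faster genes and 11.6% of all tested genes, shares close to each other. A run in this window is a match of letters and not proof of the start used in these cells. Larp1, whose product binds TOP mRNAs, lost label faster than the median transcript. Its rates were 2.11%, 1.22% and 1.20% at 0 h and 0.135%, 0.114% and 0.131% at 9 h, with no overlap, and 8.40% ± 0.733 was left (log2 change -1.12 ± 0.19, edgeR adjusted p = 0.000119).

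Genes of oxidative phosphorylation, which encode the respiratory chain and the ATP synthase, also kept much of their label, with a median of 67.8% left. Among the 82 tested, 46 were slower (56.1%), 0 faster and 36 did not pass. Slower genes were 7.88% of all tested genes and 18.1% of those with at least 10000 covered T positions. Of the 72 oxidative phosphorylation genes with a low unlabeled rate, 38 were slower, against 429 of all 7357 such genes. Library 35 gave a lower median (52.6%) than the other 9 h libraries (63.7% and 66.9%). Atp5j2, an ATP synthase subunit, had 0.792%, 0.958% and 0.750% at 0 h, 1.06%, 1.01% and 1.16% at the second time point and 0.985%, 0.760% and 0.622% at 9 h. The 0 h and 9 h libraries overlapped, with 94.7% ± 22.0 left and a log2 change of 2.38 ± 0.20 above the median (edgeR adjusted p = 3.81e-10). Ndufa12, a complex I accessory subunit, kept 99.7% ± 24, whereas Cox7a2l, a factor of respiratory supercomplexes, kept 13.2% ± 4.22 and did not pass.

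Several other housekeeping lists also had a median above the 16.9% of all tested genes and the 19.1% of well covered genes, those with at least 10000 covered T positions. Proteasome subunits had 17 of 36 slower, 0 faster, 19 not passing and 37.4% left. The CCT chaperonin and heat shock chaperones had 11 of 21 slower, 1 faster and 28.7% left, with Hspb1, a small heat shock protein, at 93.9% ± 2.88. Glycolysis genes had 5 of 20 slower, 0 faster and 46.0% left. Among mitochondrial ribosomal proteins 7 of 71 were slower (9.86%, near the 7.88% of all genes), 1 was faster and 30.2% was left. That median was 25.4% with a low unlabeled rate and lower still with the background subtracted, as given under the processing. With a low unlabeled rate 3 of 59 were slower, and 40 of 71 (56.3%, near the 57.9% of all tested genes) lay below the median transcript between the second and the third time point. Aminoacyl-tRNA synthetases had 5 of 23 slower (21.7%, near the 18.1% of well covered genes) and 1 faster with 28.5% left, or 43.1% against the second time point. The hnRNP proteins had 7 of 22 slower and 1 faster with 24.4% left, and translation initiation factors 9 of 38 slower (23.7%, against 18.1% of well covered genes) and 2 faster with 23.7% left.

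Among cytoskeletal transcripts most genes did not pass. Actin and adhesion genes had 9 of 31 slower (29%, against 18.1% of well covered genes), 1 faster and 31.1% left, and tubulins 4 of 11 slower, 0 faster and 30.5% left. Actb, cytoplasmic actin, was among the most deeply covered transcripts and fell from 1.32%, 1.17% and 1.18% at 0 h to 0.773%, 0.789% and 0.763% at 9 h. The groups did not overlap, 63.3% ± 1.07 was left and the log2 change was 1.80 ± 0.07 above the median (edgeR adjusted p = 9.81e-17). Cdh2, N-cadherin, was the faster member of the list with 5.37% ± 2.46 left. Tubb5, the main beta-tubulin, kept 29.9% ± 3.86 and Tuba1a, an alpha-tubulin, kept 53.6% ± 5.45. Gap43 and Stmn2, growth-associated proteins known from neurons, kept 45.7% ± 9.59 and 45.1% ± 9.82 and were the 2 slower genes of 11 neuronal markers tested.

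**Figure D3:**
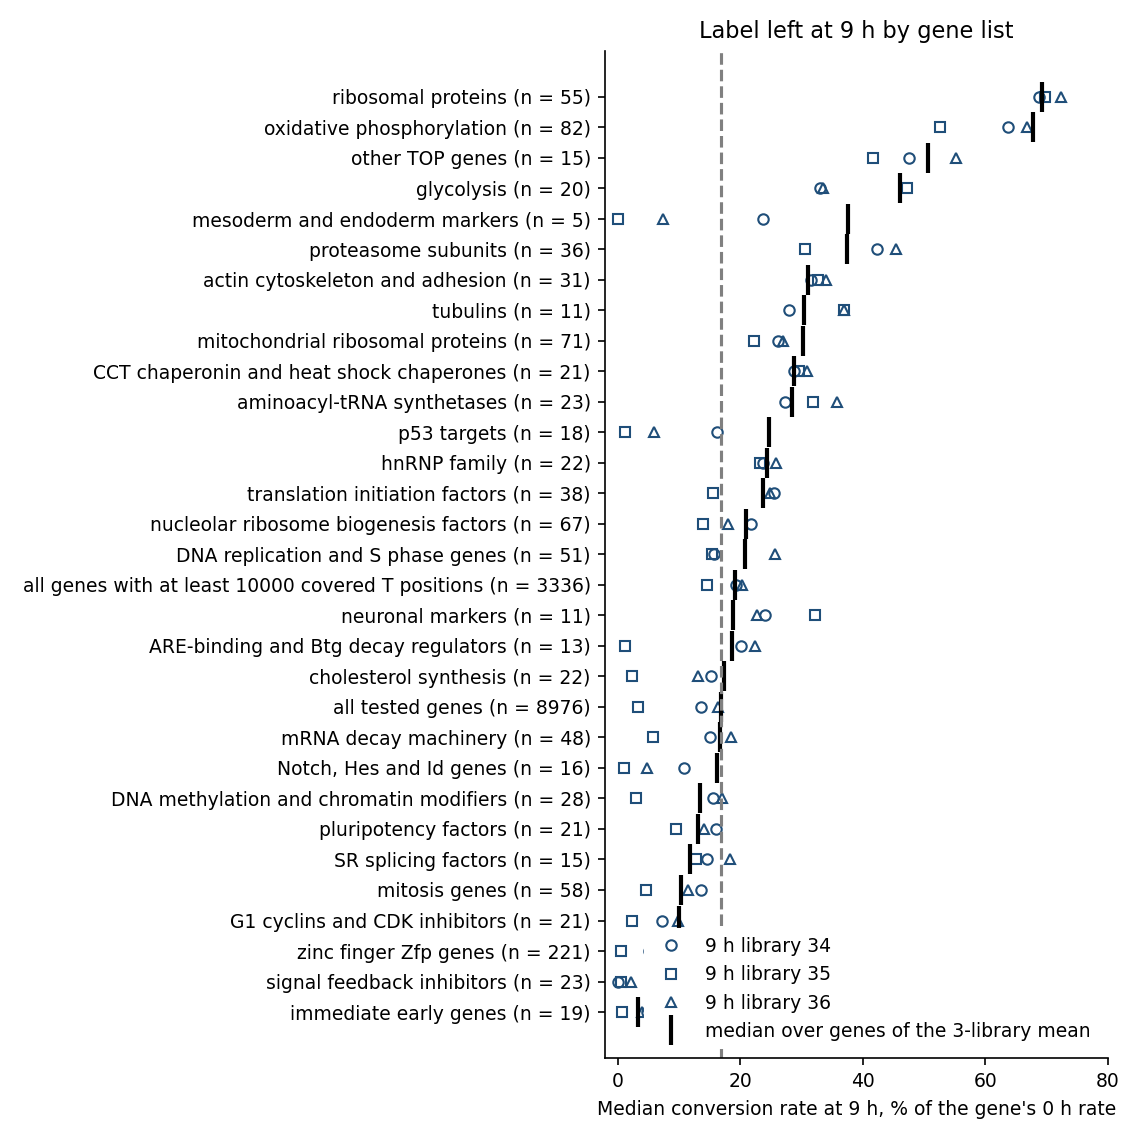
Median share of the 0 h conversion rate left at 9 h (horizontal axis, percent) for 29 gene lists, all tested genes and all genes with at least 10000 covered T positions. Open symbols are the medians in the 3 libraries of 9 h, black ticks the median over genes of the 3-library mean, and the dashed line is all tested genes at 16.9%. Ribosomal proteins (69.2%) and oxidative phosphorylation (67.8%) have high medians, and immediate early genes (3.24%) and signal feedback inhibitors (5.28%) low ones.

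Immediate early genes, transcription factors and signaling proteins induced at once by growth factors, had the lowest median of the 29 lists when the 3 libraries were averaged for each gene, but not among well covered members, where 8 immediate early genes had a median of 10.4%, 7 signal feedback inhibitors 7.22% and 4 Notch, Hes and Id genes 9.38%. Signal feedback inhibitors were lower in each library of 9 h taken alone (0%, 0.52% and 2.23% against 4.72%, 0.643% and 3.95%). Of 19 immediate early genes tested, 2 lost label faster than the median (10.5%, against 4.09% of all genes), 0 slower and 17 did not pass, and the median gene kept 3.24%. Leaving out single libraries gave 2.76% to 6.09%. Less than 5% was left in 10 of the 18 members with a value. At the third time point the median gene still had 26.6%, and between the second and the third time point 17 of 19 lay below the median transcript, against 57.9% of all tested genes. Of the 19, 5 had no conversion at 9 h, and only 8 reached 10000 covered T positions.

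Klf6, a zinc-finger factor, had 1.33%, 1.19% and 0.340% at 0 h, 0.784%, 0.842% and 0.788% at the second time point, 0.572%, 0.218% and 0.347% at the third and 0.0579%, 0.00604% and 0.0248% at 9 h. The 9 h libraries lay below all others, with 3.10% ± 2.76 left (log2 change -2.51 ± 0.59, edgeR adjusted p = 0.00375). Ier5, an immediate early response protein, fell from 1.52%, 1.24% and 0.499% to 0.0528%, 0.00393% and 0.0399%, also without overlap, and 2.96% ± 2.33 was left (log2 change -2.57 ± 0.73, edgeR adjusted p = 0.0195). Mycn, the N-Myc oncoprotein, had 3.38% ± 2.38 left and missed the threshold (edgeR adjusted p = 0.0697). Jun and Jund, AP-1 subunits, kept 15.3% ± 10.3 and 14.5%, and neither passed. Junb was listed at 109% ± 59.3 of its 0 h rate, but its unlabeled rate was 123% of that rate and 1 library each of 0 h and 9 h had no covered position.

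Pluripotency factors were spread over the range. Of 21 tested, 3 were faster (14.3%, against 8.45% of well covered genes), 2 slower (9.52%, against 18.1%) and 16 did not pass, with a median of 13.1% left, or 5.2% with the background subtracted. The faster genes include L1td1, an RNA-binding protein of pluripotent cells (2.96% ± 2.02), and Sall4, a zinc-finger factor (3.87% ± 2.30). Sall4 had 1.42%, 1.61% and 1.05% at 0 h, 1.29%, 1.42% and 1.28% at the second time point, 0.553%, 0.573% and 0.387% at the third and 0.0839%, 0.0213% and 0.0527% at 9 h, so the third and the last time point each lay below all earlier libraries (log2 change -2.22 ± 0.32, edgeR adjusted p = 9.39e-06).

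Sox2, the SRY-box factor, dropped early, from 1.81%, 1.23% and 1.00% at 0 h to 0.429%, 0.388% and 0.420% at the third time point, where 30.6% was left. At 9 h it had 0.0687%, 0.233% and 0.0439%, or 8.56% ± 7.64, and missed the threshold against the median transcript (log2 change -1.12 ± 0.40, edgeR adjusted p = 0.0719). Lin28a, which blocks let-7 maturation, kept 63.6% at the third time point and 13.1% ± 7.61 at 9 h (edgeR adjusted p = 0.235). Pou5f1 (Oct4) kept 43.8% ± 7.51 and was not called, with 0 h libraries at 0.838%, 0.00744% and 2.52%, a scatter that leaves its share uncertain. Otx2 and Utf1, the 2 slower members, kept 34.5% ± 5.14 and 50.4% ± 27.3, but their unlabeled rates were 34.3% and 62.7% of the 0 h rates.

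Regulators of signaling and of the cell cycle were taken as 4 lists. Signal feedback inhibitors had 1 of 23 faster (4.35%, near the 4.09% of all genes), 0 slower and 5.28% left, a median that ran from 1.12% to 7.48% without single libraries (1.12% without library 34) and was 0.372% with the background subtracted. The faster one was Bambi, a TGF-beta pseudoreceptor, with 2 conversions over 45919 covered T positions at 9 h. Zfp genes, the large family of zinc-finger factors, had 7 of 221 faster (3.17%), 1 slower and 8.84% left, or 15% left in the 31 well covered ones and 5.45% without library 36. G1 cyclins and CDK inhibitors had 1 of 21 faster and 3 slower with 9.98% left, or 4.88% without library 36. Ccnd2, cyclin D2, had 1.47%, 1.41% and 1.43% at 0 h, 1.23%, 1.31% and 1.30% at the second time point, 0.942%, 0.810% and 0.871% at the third and 0.183%, 0.244% and 0.175% at 9 h, each point below the one before, and 14% ± 2.66 was left (edgeR adjusted p = 0.0689). Ccnd3, cyclin D3, was slower with 40.6% ± 5.85. Mitosis genes had 7 of 58 faster (12.1%, against 8.45% of well covered genes) and 5 slower (8.62%, against 18.1%) with 10.3% left, among them Racgap1, a cytokinesis regulator (2.72% ± 3.37), and Cenpe, a kinetochore motor (3.08% ± 3.06). Top2a, the DNA topoisomerase of dividing cells, kept 5.22% ± 3.33 and was faster.

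The genes of mRNA decay themselves had 4 faster and 4 slower among 48 (8.33% each, against 4.09% and 7.88% of all genes and 8.45% and 18.1% of well covered genes) and 16.7% left. Exosc7 and Exosc6, exosome subunits, kept 3.11% ± 2.74 and 3.58% ± 1.99, whereas Lsm7 and Lsm4, subunits of the Lsm ring, kept 68.5% ± 14.7 and 67.2% ± 32.3. In the list of AU-rich element binding proteins and Btg factors 2 of 13 were faster and 2 slower (15.4% each), with 18.7% left. Its faster members Tnrc6b and Tnrc6a, the GW182 scaffolds of microRNA silencing, kept 3.12% ± 2.28 and 5.90% ± 3.15. Tnrc6a was already at 0.293%, 0.378% and 0.245% at the third time point, 24.1% of its 0 h rate.

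Of all tested genes 4.09% were faster and 7.88% slower, and of well covered genes 8.45% and 18.1%. Nucleolar ribosome biogenesis factors had 6 of 67 faster (8.96%) and 9 slower (13.4%) with 21.0% left, Gnl3 (nucleostemin) being at 2.53% ± 2.20. DNA replication genes had 1 of 51 faster and 6 slower with 20.7% left. SR splicing factors had 2 of 15 faster and 1 slower with 11.8% left, or 18.6% against the second time point. Chromatin modifiers had 2 of 28 faster and 1 slower with 13.5%, and cholesterol synthesis 1 of 22 faster and 1 slower with 17.4%. With the background subtracted, the medians of nucleolar factors, DNA replication and cholesterol synthesis were lower, as given under the processing. Notch, Hes and Id genes had 1 of 16 faster and 1 slower with 16.2% left, a value that ranged from 8.23% to 33.2% when single libraries were left out and was 6.90% with a low unlabeled rate. Of these 16 genes, 15 lay below the median transcript between the second and the third time point (median log2 change -0.76), against 57.9% of all tested genes. p53 targets had 0 of 18 called with 24.8% left, or 13% against the second time point and 8.99% without library 34, and 13 of 18 lay below the median transcript between the second and the third.

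The label taken up by D0 cells in the separate uptake course gave a second view of the same lists, since its libraries were not used here to call any gene. At the third time point of that course the median conversion rate was 0.560% over all tested genes, 0.223% for ribosomal proteins, 0.239% for oxidative phosphorylation and 1.05% for immediate early genes. Ribosomal protein and oxidative phosphorylation genes were thus below all genes in uptake, and immediate early genes were above. The 604 slower and 282 faster genes with at least 10000 covered T positions had median uptake rates of 0.331% and 0.692%. Over 3336 genes the Spearman rho between the 9 h change and this uptake rate was -0.32 and the Pearson r -0.115, correlations across genes. With the uptake rate at 9 h the rho was -0.243 and the r -0.11.

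Depth set which genes could be named. Slower genes were 7.88% of all tested genes and 18.1% of those with at least 10000 covered T positions, and faster genes 4.09% and 8.45%. In the average library 190 genes had 100000 or more covered T positions. Of these, 117 were slower, 23 faster and 50 not called. The 8 that kept the least label among those with a low unlabeled rate, a set chosen after their values were seen, were Mat2a, which makes S-adenosylmethionine, the kinases Taok3 and Taok1, the phosphatase subunit Ppp2r2a, Sall4, the polycomb cofactor Jarid2, Sox3 and Rcl1, at 2.10% to 5.09%. Mat2a had 1.42%, 1.92% and 1.32% at 0 h, 1.56%, 1.21% and 1.33% at the second time point, 0.284%, 0.479% and 0.435% at the third and 0.0534%, 0.00803% and 0.0365% at 9 h, the third and the last points each lying below all earlier libraries (log2 change -3.08 ± 0.39, edgeR adjusted p = 2.16e-06).

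The 8 of these deeply covered genes with the most label left and a low unlabeled rate kept 94.7% to 73.3%. They include Atp5j2, Rack1, the ferritin heavy chain Fth1, Rps14, Rps9, the 14-3-3 protein Ywhae and Eif5a. Not all of these shares are secure, as Fth1 kept 83.6% ± 34.2. Eif5a had a mean rate of 0.778% at 0 h, 1.16% at the second time point and 0.570% at 9 h. Ywhae is not a component of the ribosome and had 1.21%, 1.26% and 1.25% at 0 h and 0.887%, 0.905% and 0.977% at 9 h, with 74.6% ± 3.84 left (log2 change 2.04 ± 0.11, edgeR adjusted p = 4.61e-14).

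**Figure D4:**
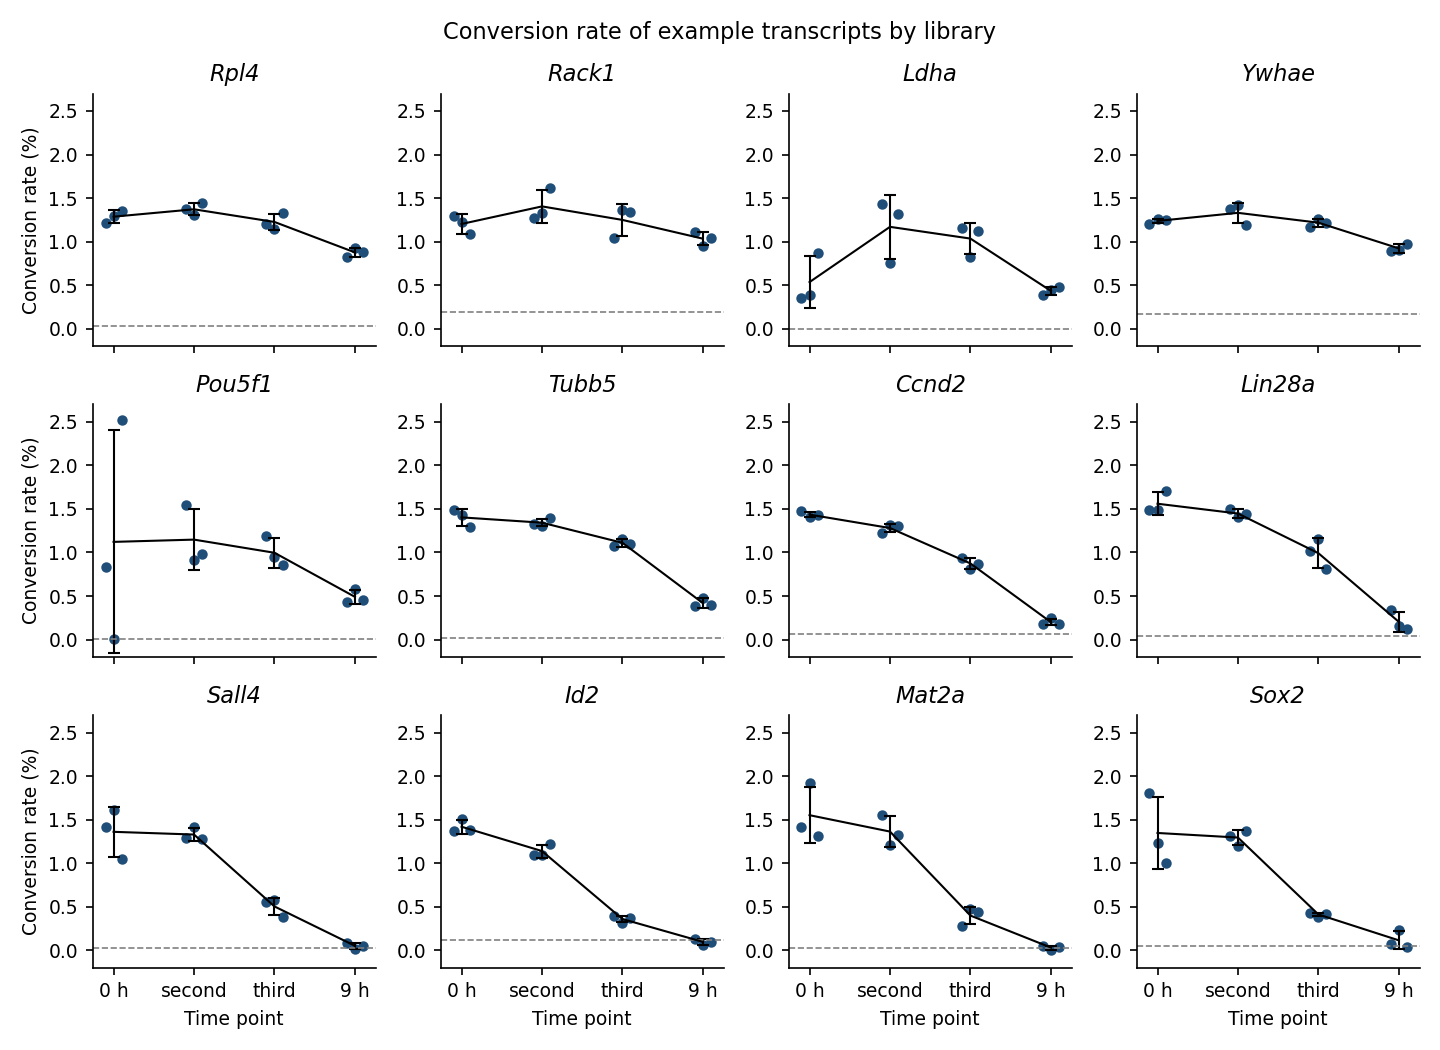
Conversion rate (percent) of 12 transcripts at the 4 time points. Blue points are single libraries, black lines mean ± SD of 3, and dashed lines the rate in unlabeled cells. Rpl4, Rack1 and Ywhae stayed above 0.8% at 9 h, whereas Sall4, Mat2a, Id2 and Sox2 were already under 0.7% at the third time point, and Pou5f1 and Ldha show the scatter of their 0 h libraries.

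By the third time point label had fallen in 42 genes, a number that depends on single libraries. They include 24 that were also faster at 9 h and 2 that were slower at 9 h. Of all tested genes 4.09% were faster and 7.88% slower, and of those with at least 10000 covered T positions 8.45% and 18.1%. Both comparisons use the same 0 h libraries, so their calls are not independent. Id2, an inhibitor of helix-loop-helix factors, was one of the 42, with 1.37%, 1.51% and 1.38% at 0 h and 0.390%, 0.316% and 0.373% at the third time point, 25.4% of the 0 h rate, and 6.90% ± 2.15 at 9 h. Sox11 was at 32.8% at the third time point and 15.4% ± 4.01 at 9 h, where it did not differ from the median transcript by the test (edgeR adjusted p = 0.464). Slc3a2, an amino acid transporter chain, was at 23.4% at the third time point. The 2 slower ones are Tubb5 at 79.2% and Otx2 at 48.7%.

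Among called genes with at least 10000 covered T positions, a low unlabeled rate and no overlap of libraries scaled by their median, the 12 lowest changes were those of Dr1, Tut4, Atp13a3, Kdm6a, Armc8, Pdzrn3, Pi4k2a, Mmp14, Bambi, Bcl9, Abl1 and Ankrd10. Each had 0 to 5 conversions at 9 h, over 31671 to 59778 covered T positions, and edgeR adjusted p-values ran from 6.01e-05 to 0.00944. In most of them the rate in unlabeled cells was above the 9 h rate, as in Pdzrn3 with 0.260% against 0.00706%, so their order at 9 h lies below the background. In the change that the rule did not use, all 12 lay below the median transcript between the second and the third time point. Of all genes with at least 10000 covered T positions 49.7% did. None of the 12 passed the test on this change, and their log2 changes ran from -1.98 ± 1.09 (SE) in Tut4 to -0.20 ± 0.72 in Pi4k2a. Dr1, a repressor of TBP-dependent transcription, and Tut4, a terminal uridylyltransferase, had 0 conversions at 9 h, which allows at most 0.747% and 0.962% of their 0 h rates to be left (3 counts over the 3 libraries, counting error only). Kdm6a, an H3K27 demethylase, had 1.37%, 0.542% and 3.07% at 0 h and 0, 0 and 0.00496% at 9 h, and Abl1, a tyrosine kinase, had 1.25%, 2.06% and 2.09% and then 0.00619%, 0.0114% and 0.00528%. Without library 35, and against the second time point in place of 0 h, all 12 were still called. Both comparisons reuse the near-zero 9 h libraries by which these genes were chosen, so they are not separate support.

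The 12 highest changes by the same rule, which include those of Stmn1, Aldh2, Vps28, Rps25, Rpl34, Bag1, Ddt, Phf8, Fkbp8, Psmf1 and Sem1, were less secure. Their 0 h rates were low, 0.373% to 1.05%, and all 12 had a higher rate at the second time point than at 0 h. Without library 35, 8 of the 12 were called. Against the second time point their share left at 9 h ran from 31.3% to 111% with a median of 72.8%, and 7 of the 12 passed the test against that point. Sem1, a proteasome lid subunit, was one of them, with 1.02%, 0.695% and 0.570% at 0 h, 1.23%, 1.14% and 1.46% at the second time point and 0.752%, 0.949% and 1.17% at 9 h. Stmn1, a microtubule-destabilizing protein, had the highest change, but with 0 h libraries at 0.692%, 0.722% and 0.112% and 9 h libraries at 1.53%, 0.508% and 0.693% its groups overlapped.

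Loss of label went with the length of the 3′ UTR. Of 4 groups of near equal size, the one with the shortest UTR, 34 to 449 bases, had a median share left of 33.9%, and 298 of 834 genes (35.7%) were slower. The group with the longest, 2138 to 15929 bases, had 13.9% left, and 60 of 833 (7.20%) were slower. Faster genes were 3.48% of the shortest and 10.3% of the longest group. Median coverage was similar, 22608 and 19146 covered T positions. The Spearman rho between UTR length and the change was -0.32 across 3336 genes, and the ribosomal protein genes, with a median UTR of 109 bases, and oxidative phosphorylation genes, with 156 bases, fall in the shortest group by that median.

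**Figure D5:**
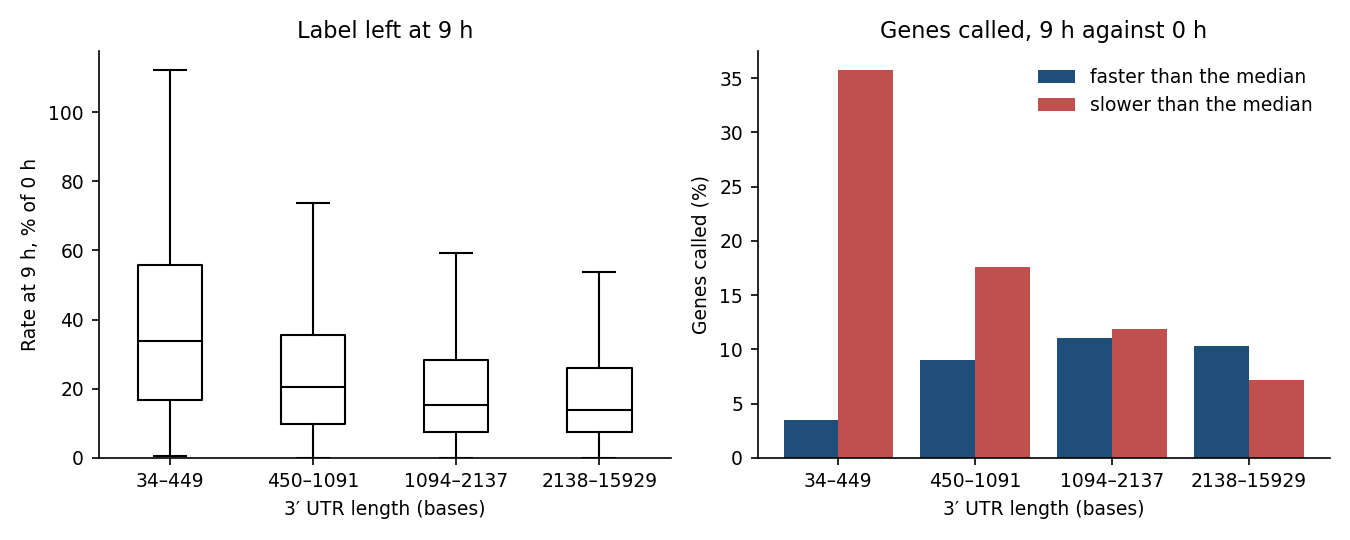
Genes with at least 10000 covered T positions, divided into 4 groups by 3′ UTR length in bases. Left, conversion rate at 9 h as a percent of 0 h (line, median; box, quartiles; whiskers, furthest value within 1.5 box lengths; outliers not drawn); right, percent of genes called faster or slower than the median transcript. The median falls from 33.9% to 13.9% from the shortest to the longest UTR.

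Several short elements in the UTR were looked for on the transcript's strand, in 8562 of 8976 genes (95.4%) whose interval could be read from GENCODE vM21 transcripts on the same assembly. The Pumilio element TGTANATA stood in 27.1% of all tested genes, in 38.4% of the faster and in 11.3% of the slower genes. Because longer UTRs hold more of any element, the share was also taken by length. In UTRs under 500 bases it was 8.78%, 20.8% and 2.89% for all, faster and slower genes, and in UTRs over 1500 bases 45%, 51.3% and 31.6%. The median share of label left was 19.0% with no copy, 13.3% with 1 copy and 10.8% with 2 or more, and within UTRs over 1500 bases it was 15%, 13% and 11%. Between the second and the third time point the median log2 changes were -0.05, -0.31 and -0.48 over all lengths and -0.25, -0.37 and -0.50 in UTRs over 1500 bases.

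The AU-rich pentamer ATTTA stood in 69.3% of all, 81.5% of faster and 50.8% of slower genes, with 32.5%, 50.9% and 26.3% in UTRs under 500 bases and 94.5%, 93.5% and 93.2% in UTRs over 1500 bases. The AU-rich nonamer TTATTTATT, which contains the pentamer, stood in 7.46%, 7.67% and 2.65%. The hexamer GCACTT, complementary to bases 2 to 7 of the miR-290 and miR-302 families of pluripotent cells, stood in 31.5% of all, 34.4% of faster and 15.8% of slower genes. The let-7 match CTACCTC stood in 9.32%, 8.81% and 5.45%. In UTRs over 1500 bases the shares were 55.3%, 55.8% and 48.9% for GCACTT and 16.9%, 16.9% and 15% for CTACCTC. The nonamer had 13.6%, 11% and 9.02% there. In UTRs under 500 bases GCACTT stood in 7.29%, 11.3% and 3.47% and CTACCTC in 2.46%, 0% and 2.31%. The median share of label left was 18.7%, 14% and 12.7% with 0, 1 and 2 or more copies of GCACTT and 23.2%, 17.4% and 13.9% with those of ATTTA. In UTRs over 1500 bases it was 14.2%, 12.7% and 12.7% for GCACTT and 17.4%, 14.3% and 13.2% for ATTTA. Among immediate early genes, 17 of 18 held ATTTA and 9 of 18 held TGTANATA. A match is a description of the letters and not a bound site.

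The following 30-base stretches (mm10) show one such match, in capitals, in genes described above, the first 5 with the Pumilio element, then the AU-rich nonamer and the GCACTT hexamer.
Sox2 (chr3:34652339-34652368, plus strand): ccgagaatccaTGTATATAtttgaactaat
Ier5 (chr1:155097653-155097682, minus strand): ccttatggcttTGTAGATAaggtgactcca
Mycn (chr12:12936593-12936622, minus strand): gggaacacttgTGTAAATAccattgataca
Kdm6a (chrX:18278886-18278915, plus strand): ttaccacgtttTGTATATAtctgacaaaac
Lin28a (chr4:134004352-134004381, minus strand): tggcctagttgTGTAAATAtaaatgtgttg
Atp13a3 (chr16:30314045-30314074, minus strand): ccccccctatTTATTTATTttttatgttgg
Ccnd2 (chr6:127129329-127129358, minus strand): tccattagaaaaGCACTTtgaaaattttgg
The microRNAs that the hexamer pairs with are shown with the seed (bases 2 to 8, from RefSeq) in capitals, and these 2 members of the families share it.
mmu-miR-294-3p: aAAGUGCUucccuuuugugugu
mmu-miR-302b-3p: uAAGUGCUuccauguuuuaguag

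Few transcript levels passed the test for a change during the chase. Of 17993 transcripts tested on read counts at 9 h against 0 h, 18 (0.1%) were higher and 5 (0.0278%) lower (edgeR, adjusted p under 0.05), belonging to 12 and 5 genes, whereas DESeq2 called 228 higher and 113 lower, and leaving out single libraries gave 4 to 168 higher (168 without library 26, 4 without library 35) and 0 to 34 lower (34 without library 27). The higher ones include Ddit4, an inhibitor of mTORC1 signaling, with 6.55, 2.94 and 0 CPM at 0 h and 142, 172 and 90.0 CPM at 9 h (log2 change 5.39 ± 0.75). Others were Bnip3, a mitophagy receptor, Plod2, a collagen lysyl hydroxylase, and the glycolytic genes Pfkl and Ldha. The lower ones were Efnb1, Pea15a, Pmepa1, Emc8 and Srsf2. Cdc7 and Shq1 were also called higher, but they were absent or near absent in the 0 h libraries and present from the second time point on.

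Ldha, lactate dehydrogenase A, had 142, 164 and 178 CPM at 0 h and 278, 320 and 361 CPM at 9 h (log2 change 0.99 ± 0.17). Its conversion rates were 0.349%, 0.384% and 0.875% at 0 h, 1.44%, 0.756% and 1.32% at the second time point and 0.388%, 0.440% and 0.479% at 9 h. It kept 81.2% ± 8.50 of the 0 h rate and was called slower (edgeR adjusted p = 0.000264). At the second time point Ldha had 218% of its 0 h rate, and all 9 h libraries lay below all libraries of the second time point. Over the glycolysis list the median read change was +0.69 on the log2 scale, against +0.01 for all tested genes.

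Half-lives were fitted as an exponential loss to the 12 rates of each transcript at the hours of the methods. A fit with an R squared above 0.6 and a half-life up to 5000 min was obtained for 2246 of 14090 transcripts, and their median half-life was 281 min. It was 178 min over 5108 transcripts with 0 and 9 h only, and 405 min over 11037 with no minimum of R squared. Only 1 of 55 ribosomal protein genes and 3 of 82 oxidative phosphorylation genes were in that set. Single values were 167 ± 37.7 min (SE of the fit) for Mycn, 229 ± 33.1 for Id2, 235 ± 49.7 for Mat2a, 274 ± 65.7 for Sox2, 282 ± 65.5 for Sall4, 365 ± 60.6 for Ccnd2, 372 ± 98.3 for Larp1 and 556 ± 109 for Tubb5. With the hours of the labels the median was 198 min over 3446 transcripts, so minutes depend on which hours hold, whereas shares left at 9 h do not.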

How the data were processed

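SLAM-seq libraries were made by the authors with a 3′ end kit (QuantSeq FWD), read as 101 bp single ends and processed with SLAMdunk v0.3.3 (per the file headers) on mm10, with variant positions masked. The deposited files list, for each 3′ UTR interval with a RefSeq name, counts of reads, of reads with a conversion, of covered T positions and of conversions, a conversion rate as a fraction of covered T positions, and the reads as CPM, all computed by the authors. The libraries carry no molecular identifiers, so intervals and floors cover counting error only.

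The rate was recomputed from the deposited counts. Conversions were tested with edgeR 4.0.16 (quasi-likelihood, R 4.3.3) offset by log covered T positions, over the 12 libraries of the course, on transcripts averaging 1000 or more covered T positions. Changes are relative to the median over transcripts with at least 10000, and p-values were adjusted over all tested transcripts (Benjamini-Hochberg, 0.05). Reads were tested with edgeR with its own normalization. The CPM given for Ddit4 and Ldha come from that test, scaled to its normalized counts over the tested mRNA transcripts. Shares left are ratios of group means with the SD of the 9 h libraries only, so the spread at 0 h is not in it. Alternatives used DESeq2 1.42.0 and limma 3.58.1. On simulated data for the relative 9 h comparison of 14090 transcripts, 50 transcripts were given each log2 change. A change of 2 was recovered for 24% and one of -2 for 4%. With at least 10000 covered T positions these shares were 61.1% of 18 and 13.3% of 15 transcripts. Many changes were missed there, but the simulation called only 15 transcripts, against 594 faster and 1038 slower in the data. Its adjusted threshold was therefore stricter, and the shares do not carry over to the data. Named genes are the 12 lowest and 12 highest called changes with an unlabeled rate of at most 25% of 0 h, any tested immediate early or pluripotency gene, the 2 ends of each other list, Larp1 and Rpl4. Other genes named were chosen after their values were seen. The course, members and lists were chosen with earlier results of these data known. Sequences came from RefSeq (GRCm38.p6) and GENCODE vM21 transcripts, in which all 17374 fully covered intervals of 21788 held the T count of the files. Some genes that these rules would name are not reported here.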

Additional observations from a re-analysis of the deposited data

Results flagged for a closer look

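RefSeq transcripts of the non-coding class were not part of any comparison, yet they carried label above the level of unlabeled cells. Many are non-coding variants of protein-coding genes, such as those of Gnl3, Rnf44 and Trub2, or pseudogenes, whose intervals can share reads with mRNAs. Over 336 such transcripts the pooled conversion rate was 1.38% ± 0.0385 at 0 h (SD, n = 3), against 0.214% ± 0.0118 in unlabeled D0 cells. It was 1.35% at the second time point, 1.01% at the third and 0.485% at 9 h, which is 35.1% of 0 h. Groups of 3 libraries were not searched for single outlying values.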

How the results depend on the processing

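The order of faster and slower counts turned under pooled centring, and the medians of several lists moved across that of all genes under some alternatives. DESeq2 called 1304 transcripts faster, 472 fallen at the third time point, 1 changed at the second, 29 faster and 10 slower between the second and the third, and 228 with more and 113 with fewer reads. Counting reads with a conversion gave 30 fallen at the third time point and 1 faster and 2 slower between the second and the third. With 1 transcript per gene, 4091 fell, 658 were slower, 42 fell at the third time point and 1 was faster between the second and the third. Centring on the pooled rate gave 1322 faster, 565 slower and 1 faster between the second and the third. limma with the background subtracted gave 1562 slower, 7 fallen at the third time point and 0 slower between the second and the third, and this last count was also 0 with the background limited to 25% (added after seeing the data). No filter on low read counts gave 53 with more and 22 with fewer reads. The median half-life was 198 min with the hours of the labels, 178 with 0 and 9 h only, 405 with no minimum of R squared, 256 with the background subtracted and 294 with at least 5000 covered T positions.

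With the background subtracted, the median share left was 11.5%. In the lists it became 67.3% for ribosomal proteins, 5.2% for pluripotency factors, 0.372% for signal feedback, 7.94% for Notch, Hes and Id genes, 15.5% for p53 targets, 18.3% for hnRNP, 20.6% for tRNA synthetases, 10.2% for nucleolar factors, 14.5% for DNA replication, 5.61% for G1 cyclins, 34.1% for glycolysis, 16.7% for mitochondrial ribosomal proteins, 24.6% for chaperones, 7.70% for cholesterol synthesis, 28.6% for actin and adhesion, 25.1% for tubulins and 12.8% for neuronal markers. At 5000 covered T positions it was 6.42% for immediate early genes, 17.2% for pluripotency factors, 35.3% for Notch, Hes and Id genes, 13% for p53 targets, 31.5% for chaperones, 34.7% for neuronal and 21.9% for mesoderm and endoderm markers. Against the second time point (added after seeing the data) it was 3.38% for signal feedback, 8.67% for Notch, Hes and Id genes, 13% for p53 targets, 18.6% for SR factors, 28.3% for hnRNP, 43.1% for tRNA synthetases, 37.7% for glycolysis, 58.9% for oxidative phosphorylation, 25.1% for mitochondrial ribosomal proteins, 30.7% for chaperones, 35% for actin and adhesion, 32.9% for neuronal and 20.6% for mesoderm and endoderm markers. The cause of these differences was not tested.

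Leaving out each library in turn, fallen transcripts ranged from 5588 to 6324, faster from 397 to 816, slower from 887 to 1156, fallen at the third time point from 19 to 366 (366 without library 35), changed at the second from 0 to 1, faster and slower between the second and the third from 0 to 14 and 0 to 1, more reads from 4 to 168, fewer from 0 to 34, the half-life from 253 to 284 min and the median share from 17.1% to 19.2%. By list the median share ranged from 67.3% to 74.4% (ribosomal proteins), 47.9% to 62.6% (other TOP), 62.4% to 68.1% (oxidative phosphorylation), 2.76% to 6.09% (immediate early), 8.72% to 16.1% (pluripotency), 1.12% to 7.48% (signal feedback), 8.23% to 33.2% (Notch, Hes and Id), 5.45% to 9.54% (Zfp), 8.99% to 21.1% (p53), 15.9% to 21.3% (AU-rich element binding), 15.3% to 21.4% (decay machinery), 12.4% to 15.8% (SR), 20.9% to 28% (hnRNP), 21.3% to 27.4% (initiation factors), 27.7% to 32.2% (tRNA synthetases), 18% to 22.8% (nucleolar), 20.04% to 23.4% (DNA replication), 9.31% to 11.6% (mitosis), 4.88% to 9.93% (G1 cyclins), 31.7% to 46.8% (glycolysis), 24.6% to 31.9% (mitochondrial ribosomal), 38.3% to 44.5% (proteasome), 26.2% to 34% (chaperones), 13.3% to 18.1% (cholesterol), 31.4% to 37.3% (actin and adhesion), 30.3% to 34.1% (tubulins), 10.6% to 15.9% (chromatin), 18.3% to 26.8% (neuronal) and 3.72% to 44.4% (mesoderm and endoderm).

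Without library 35, 785 transcripts were faster, of which 535 were among the 594, and without library 27, 486, of which 420 were. No paired analysis was possible because no library number is shared between time points. Depth limits calls of loss. In simulated data few changes of -2 were recovered even with at least 10000 covered T positions (13.3% of 15 transcripts). That simulation called far fewer transcripts than the data, so the share does not carry over.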

Other observations

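Single non-coding transcripts covered much of the range of the mRNAs. The share of the 0 h rate left at 9 h was 0.979% for Gm11627, 4.49% for Snhg3, 11.6% for Tug1, 12.5% for Malat1, a nuclear non-coding RNA, and 16.4% for Snhg5. Gm11627, Tug1 and Snhg5 had unlabeled rates (0.0167%, 0.558% and 0.507%) above their 9 h rates (0.0100%, 0.203% and 0.266%). Snhg9 and Snhg8 were at 9.14% and 4.59% at 9 h with unlabeled rates of 8.85% and 2.82%, so their conversions were largely present without 4sU.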
